A study of Mus musculus with 20 samples.

Results

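Long intergenic noncoding RNAs (lincRNAs) were quantified by RNA-seq of unsorted tissue of a liver lobe from 20 male mice, with 5 mice in each of 4 groups. The groups were WT on control diet (NDWT), TSP-1 null on control diet (NDKO), WT on CDAHFD (HFWT) and TSP-1 null on CDAHFD (HFKO). CDAHFD is a high fat diet that lacks choline, is limited in methionine and has a defined amino acid content, and it is used to model steatohepatitis. Mice were bought at 5 weeks of age, acclimated for 1 week and given either chow for 12 weeks. WT mice were C57/BL6 by the labels, and the null mice carried a constitutive deletion of Thbs1, the gene of TSP-1, so that no cell type was targeted. The lincRNAs were selected on their measured level: rows of the gene table typed lincRNA with FPKM above 0.5 in at least 5 of the 20 libraries, without H19 and without rows that start between 114 and 122.1 Mb on chromosome 2, where Thbs1 lies. FPKM is the number of fragments scaled to gene length and to the assigned fragments of the library. This gave 230 of 1792 lincRNA rows, out of 38924 rows in all. Of the other lincRNA rows 1559 did not pass, and 3 were left out by name or position. Across the type, 683 rows were at 0 in every library.

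LincRNAs are transcripts that hold no known protein, and many but not all of them are spliced and polyadenylated like mRNAs. Some build nuclear bodies, as Neat1 does for paraspeckles, some act on the chromatin of their neighbours, and some serve mainly as precursors from whose introns small nucleolar RNAs (snoRNAs) or microRNAs (miRNAs) are cut. In liver they are studied for cell-type-restricted expression and for their part in lipid metabolism and in fibrosis. The libraries were made from RNA enriched with oligo(dT) beads, so lincRNAs without a poly(A) tail are measured less well.

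Small RNAs give the best-defined products of these lincRNAs. In GENCODE M21, 12 of the 230 held a snoRNA on their own strand and 10 held a miRNA hairpin. Mature sequences of the hosts that the results turn on are given below from RefSeq (GRCm38.p6), 5′ to 3′, with the seed (bases 2 to 8, which pair with target mRNAs) in capitals. The libraries measured the host transcripts and not these small RNAs.
mmu-miR-142a-5p: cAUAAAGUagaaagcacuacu
mmu-miR-142a-3p: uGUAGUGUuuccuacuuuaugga
mmu-miR-770-5p: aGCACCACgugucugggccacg
mmu-miR-770-3p: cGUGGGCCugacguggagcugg
mmu-miR-29b-3p: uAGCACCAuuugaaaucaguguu
mmu-miR-29c-3p: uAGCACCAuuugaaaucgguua
mmu-miR-17-5p: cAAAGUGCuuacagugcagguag
mmu-miR-20a-5p: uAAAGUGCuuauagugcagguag
mmu-miR-18a-5p: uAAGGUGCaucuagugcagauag
mmu-miR-19a-3p: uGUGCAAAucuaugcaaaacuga
mmu-miR-19b-3p: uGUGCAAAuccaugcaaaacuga
mmu-miR-92a-3p: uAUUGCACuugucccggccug

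The miR-142a pair lies in A430104N18Rik and is known from blood cells. The miR-770 pair lies in Meg3. miR-29b-3p and miR-29c-3p share the seed AGCACCA, are known to bind collagen mRNAs and lie in A330023F24Rik. The other arms come from Mir17hg, the host of the miR-17-92 cluster, where miR-17-5p and miR-20a-5p share AAAGUGC and both miR-19 arms share GUGCAAA.

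Libraries held 15641545 to 23276322 fragments, recovered from FPKM and gene length. Thbs1 went against its labels on the control diet, at 0.058 to 0.326 FPKM in the libraries labelled WT and 0.986 to 1.90 FPKM in those labelled TSP-1 null, and was 3.46 to 6.10 and 3.05 to 4.40 FPKM in HFWT and HFKO. "TSP-1 null" and "WT" therefore mean the labels throughout. Markers of several other liver cell types moved with the diet. The summed FPKM of 6 stellate cell and myofibroblast markers was 44.4 to 62.8 on control diet and 189 to 348 on CDAHFD, with 6 of 6 called higher in each genotype. The 5 macrophage markers analysed here, 4 called higher and 1 lower in each genotype, summed to 115 to 194 and 532 to 1173 FPKM, 4 cholangiocyte markers, all called higher, to 2.05 to 3.85 and 17.7 to 45.6 FPKM, and 5 T cell markers, 4 of them called higher, to 0.722 to 3.64 and 2.98 to 14.4 FPKM. Of 4 neutrophil markers, which summed to 1.65 to 5.03 and 14.5 to 36.7 FPKM, 3 were called higher and Ly6g had a median of 0. All 4 B cell markers were called higher in each genotype, though their sums overlapped, at 3.95 to 15.8 and 11.4 to 24.3 FPKM. The 4 endothelial markers summed to 25.1 to 33.7 and 31.1 to 48.1 FPKM, with 1 called higher in WT and 2 in the null mice. The 3 erythroid markers summed to 112 to 310 and 92.0 to 195 FPKM, with 1 called lower in WT and 2 in the null mice. The 5 hepatocyte markers summed to 32493 to 43447 and 24935 to 44190 FPKM, with 1 called lower in WT and 2 in the null mice. The part of these cells in the differences between diets was not tested, and in unsorted liver tissue fewer cells of a type and less RNA per cell cannot be told apart.

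The lincRNAs were low next to mRNAs. Their median level over the 20 libraries was 0.967 FPKM, against 5.03 FPKM for the 12617 protein-coding rows that passed the same filter. Of the 230, 88 were above 0.5 FPKM in all 20 libraries, 110 had a mean above 1 FPKM and 11 a mean above 10 FPKM. At the edge of the filter, the fifth-highest library was at 0.502 FPKM for 1010001B22Rik, 0.506 for Gm12840 and Gm17705 and 0.509 for Gm2415, which passed, and at 0.499 FPKM for A430110L20Rik and Gm26698 and 0.488 for Gm26808, which did not. Of the 230, 146 to 167 were above 0.5 FPKM in a control diet library and 175 to 206 in a CDAHFD library, a count that uses the threshold of the selection, beside 11941 to 12391 and 13747 to 14421 of all genes. Their share of all fragments, without Gm26924, was 0.149 to 0.237% on control diet and 0.214 to 0.346% on CDAHFD.

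Not all are intergenic or noncoding by a later annotation. GENCODE M21 types 133 of them as lincRNA, 38 as antisense, 19 as processed transcript and 3 as protein-coding, and 17 had no entry there. 84 overlap a protein-coding gene on the opposite strand. The kit keeps strand, but the strand setting of the counting is not given in the sources used here, so that reads of such a lincRNA and of its partner cannot be told apart.

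Gm26924, which M21 names Gm42418, was the highest row, at 814 to 24418 FPKM. It overlaps a ribosomal RNA gene (GRCm38 chromosome 17, 39846958 to 39848788) and took 0.149 to 4.47% of a library's fragments, most in HFWT replicate 5. Within HFWT the other 4 libraries were at 2727 to 3889 FPKM. Its diet log2FC in TSP-1 null mice was 1.46 (SE 0.63, FDR 0.0446), a call that was lost in 12 of 28 alternatives, among them leaving out NDWT replicate 2, 3 or 5, NDKO replicate 1 or 2, HFWT replicate 1 or HFKO replicate 1, 2, 3 or 5. No direction is drawn from this row.

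Besides it, the 9 most abundant lincRNAs were Malat1, Neat1, Gm15611, C330006A16Rik, 1810058I24Rik, 9030616G12Rik, 1500011K16Rik, 2410004N09Rik and RP23-341H6.1. A lincRNA was called when the limma FDR (Benjamini-Hochberg over all 14524 genes tested, two-sided) was under 0.05 and the absolute log2FC above 0.58, and each call was refitted under up to 28 alternatives of scaling, filter, pseudocount, model or left-out library. C330006A16Rik had means of 31.4 ± 2.70 (NDWT), 31.7 ± 3.80 (NDKO), 27.3 ± 2.78 (HFWT) and 28.7 ± 1.42 FPKM (HFKO; mean ± SD, n = 5 mice). RP23-341H6.1 had means of 13.8 ± 1.80, 12.1 ± 2.76, 12.0 ± 1.30 and 10.9 ± 1.77 FPKM, listed alike. Neither was called in any comparison, nor was 2410004N09Rik, with log2FC of -0.38 (SE 0.15, FDR 0.0306) for WT and -0.53 (SE 0.15, FDR 0.00438) in TSP-1 null mice between diets. 1500011K16Rik is now annotated as Mtln, which encodes a small mitochondrial protein. It was at 7.28 to 11.9 FPKM in NDWT and 17.2 to 22.1 in HFWT, without overlap, and rose (log2FC 1.04, SE 0.10, FDR 3.15e-08). The null mice had 11.9 to 12.96 and 16.1 to 19.7 FPKM, with a log2FC of 0.53 (SE 0.10, FDR 0.000127), under the fold threshold. 1810058I24Rik was at 9.24 to 13.9 FPKM in NDKO and 18.6 to 21.2 in HFKO and rose (log2FC 0.81, SE 0.12, FDR 7.99e-06), with 0.56 (SE 0.12, FDR 0.000407) in WT mice, which was called without NDWT replicate 2 or 5 or HFWT replicate 1 or 3. The rise of 1500011K16Rik no longer passed with median of ratios scaling, and that of 1810058I24Rik with that or quantile scaling.

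CDAHFD changed many lincRNAs, and the balance of rises and falls depended on the scaling between libraries. In WT mice 89 of the 230 (38.7%) were called higher on CDAHFD and 22 (9.57%) lower, beside 44.1% and 4.62% of all genes tested. In TSP-1 null mice 68 (29.6%) were called higher and 28 (12.2%) lower, beside 41.9% and 4% of all genes. Among the 230 the median log2FC was 0.38 (WT) and 0.25 (TSP-1 null), against 0.53 and 0.50 over all genes. With median of ratios scaling, which brings the median over all genes to 0.01 and 0.00, 44 were higher and 54 lower for WT and 37 and 70 for TSP-1 null mice. With quantile normalization 24 were higher and 111 lower for WT and 24 and 119 for TSP-1 null mice. Over all genes, median of ratios scaling called 23.1% higher and 14.8% lower in WT and 22.6% and 13.2% in the null mice, and quantile normalization 17.3% and 17.6% in WT and 16.7% and 15.1% in the null mice. All 22 and 28 lower calls held under all 3 scalings, as did 22 of the 89 and 23 of the 68 higher calls. Both other scalings moved calls over all genes from higher to lower, so lower calls could hardly be lost. This contrast is therefore no test of the falls.

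**Figure D1:**
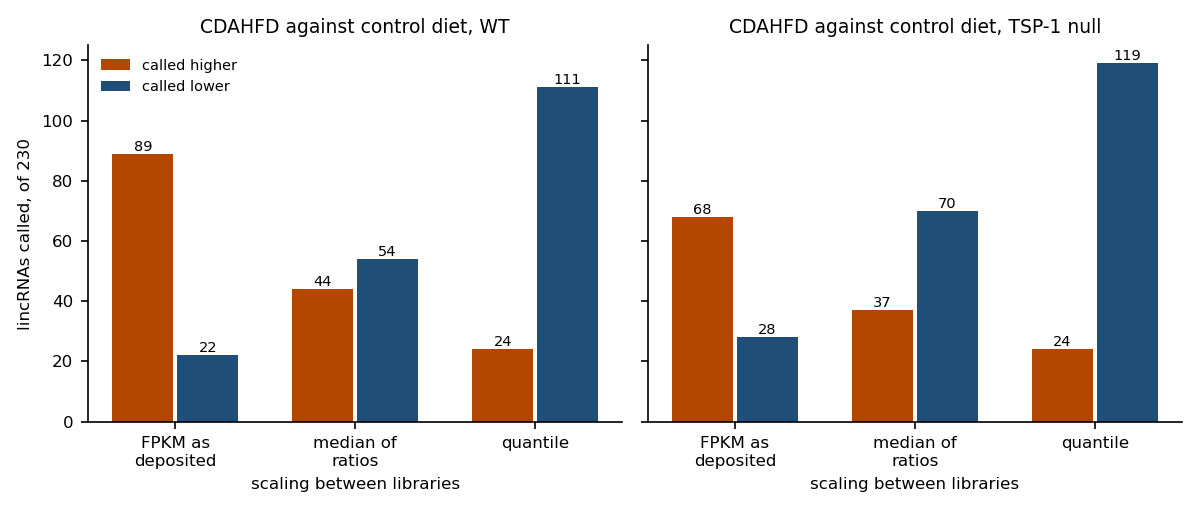
Number of the 230 lincRNAs called higher or lower on CDAHFD by limma (y axis, bars from 0), in WT (left) and TSP-1 null mice (right), under 3 ways of scaling the libraries (x axis). Higher calls go from 89 to 24 in WT mice and lower calls from 22 to 111.

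Groups did not overlap between diets for 73 lincRNAs that were higher and 13 that were lower in WT, beside 50.5% and 5.7% of all genes, and for 52 and 26 in TSP-1 null mice, beside 52.7% and 5.03%. The diet comparisons of WT and TSP-1 null mice share no library. 71 lincRNAs were called in both, 57 higher and 14 lower, which is 64% of the 111 called for WT and 74% of the 96 called for TSP-1 null mice, and none in opposite directions. The share of all genes called in both was not computed. With 44.1% (WT) and 41.9% (TSP-1 null) of all genes called higher, this overlap is not read as a trait of lincRNAs. Some of the 57 also passed the filter through CDAHFD libraries alone. Under all 3 scalings 17 were higher and 14 lower in both. Of the 230, 25 were above 0.5 FPKM in CDAHFD libraries alone and 1 (C430014B12Rik) in control diet libraries alone. The filter passed these because they were high on 1 diet, so their diet calls follow from the selection: all 25 are among the 89 called higher in WT mice, and no diet test is given for any of them by name. Without them, 64 of 204 (31.4%) were called higher and 21 (10.3%) lower in WT mice, beside 39.5% and 4.78% of the 13296 genes above 0.5 FPKM on both diets. In the null mice it was 47 (23%) and 28 (13.7%), beside 37.1% and 4.11%. These 204 still include lincRNAs with too few libraries of 1 diet above 0.5 FPKM to pass through that diet. Their diet calls lean on the selection too.

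**Figure D2:**
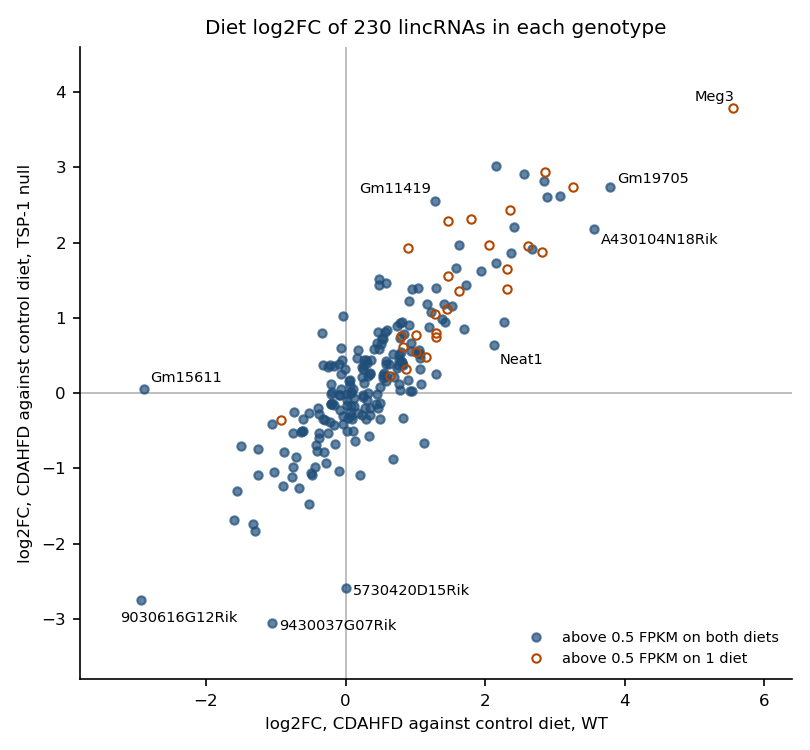
log2FC of CDAHFD against control diet for the 230 lincRNAs, in WT mice (x axis) and TSP-1 null mice (y axis), 5 mice per group. Filled points were above 0.5 FPKM in at least 1 library of each diet, and open points in libraries of 1 diet alone. Meg3 lies at 5.55 and 3.78, 9030616G12Rik at -2.93 and -2.74, and Gm15611 at -2.88 and 0.05.

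Among nuclear lincRNAs, Neat1 differed most between diets. Neat1 is the RNA that holds paraspeckles together, and Malat1 is an abundant RNA of nuclear speckles. Neat1 was at 9.93, 12.7, 12.2, 16.4 and 11.7 FPKM in NDWT and at 65.4, 40.0, 58.4, 57.8 and 55.6 FPKM in HFWT. It was 4.4-fold higher on CDAHFD, without overlap (log2FC 2.13, SE 0.22, FDR 6.7e-08). In TSP-1 null mice it was at 38.5, 13.035, 29.1, 36.1 and 20.1 FPKM on control diet and at 35.4, 40.7, 38.8, 37.0 and 47.5 on CDAHFD. These groups overlapped, and the log2FC was 0.64 (SE 0.22, FDR 0.015), a call lost without NDKO replicate 2 or 5 or HFKO replicate 5 and with median of ratios or quantile scaling (FDR up to 0.672).

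Malat1 was at 68.5, 75.8, 103, 74.5 and 77.9 FPKM in NDWT and at 135, 115, 126, 172 and 152 FPKM in HFWT, and rose (log2FC 0.81, SE 0.16, FDR 0.000193), though not with median of ratios scaling (FDR 0.201). In TSP-1 null mice it was at 69.7 to 120 and 74.1 to 136 FPKM, with a log2FC of 0.38 (SE 0.16, FDR 0.0424), under the fold threshold. Jpx and Ftx, both of the X inactivation centre, were at 0.317 to 1.05 and 0.284 to 1.86 FPKM and were not called in any comparison. Of the mRNAs of 13 paraspeckle proteins, 5 were called higher between diets for WT and 3 for TSP-1 null mice. Of those of 10 nuclear speckle proteins it was 4 and 3, with none lower in either list, beside 44.1% and 41.9% of all genes called higher. Median log2FC were 0.46 and 0.37 for the former and 0.56 and 0.34 for the latter, beside 0.53 and 0.50 over all genes.

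**Figure D3:**
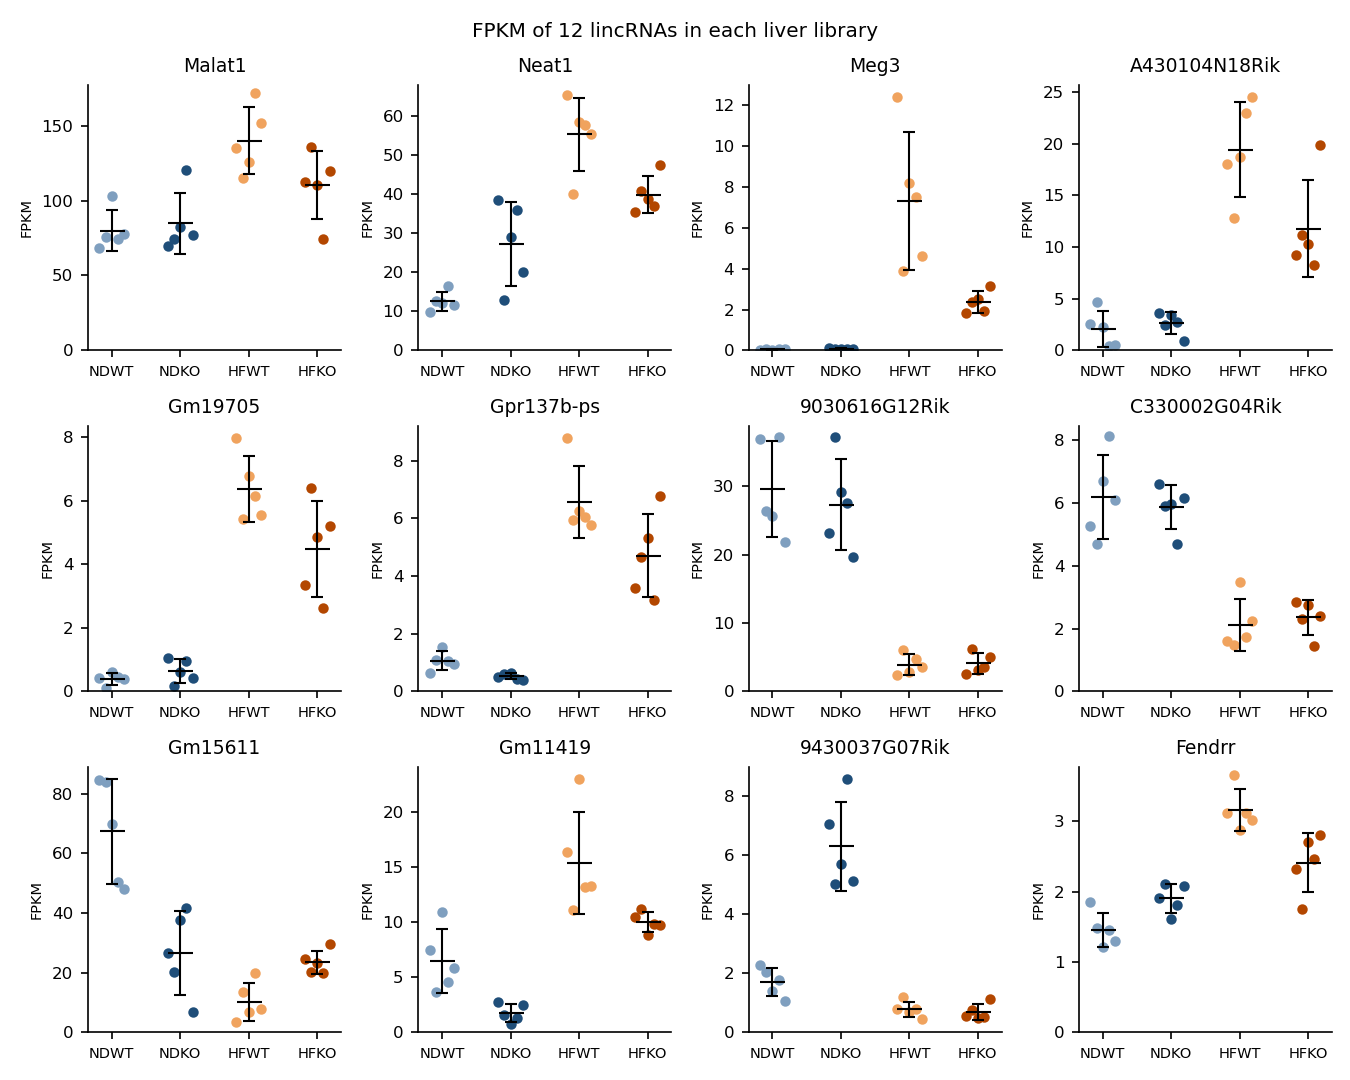
FPKM (y axis, linear and from 0) of 12 lincRNAs in each of the 20 libraries, by group. Each point is 1 mouse, and the bar and whiskers are the mean ± SD of 5 mice. Neat1 is lowest in NDWT, Meg3 stays under 0.12 FPKM on control diet, and 9430037G07Rik is high in NDKO alone.

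Of 8 lincRNAs listed as small RNA hosts, 3 rose with the diet in WT mice and 1 of these also did so in TSP-1 null mice (beside 44.1% and 41.9% of all genes), and none of the 8 fell. Of the 12 that hold a snoRNA, 5 were called higher and 1 lower (9430037G07Rik) in WT, and 2 and 1 in the null mice. The Snhg genes carry snoRNAs, which guide the modification of ribosomal RNA, in their introns. Snhg5 was at 1.37 to 2.11 FPKM in NDWT and 2.91 to 3.31 in HFWT (log2FC 0.79, SE 0.15, FDR 9.49e-05). Snhg7 was at 0.468 to 1.09 and 1.30 to 1.81 FPKM in the same groups (log2FC 0.93, SE 0.20, FDR 0.0004). Neither overlapped. Snhg4 was at 0.56 to 1.47 and 1.11 to 1.71 FPKM, with overlap (log2FC 0.75, SE 0.23, FDR 0.00733). In TSP-1 null mice Snhg7 had a log2FC of 0.67 (SE 0.20, FDR 0.00636), a call lost without NDKO replicate 4 or HFKO replicate 5. All 4 calls were lost with median of ratios scaling or a pseudocount of 1, and with quantile normalization the log2FC turned to -0.03 for Snhg5, -0.25 for Snhg4 and -0.07 and -0.24 for Snhg7. Snhg6, with group means of 5.41 to 5.90 FPKM, was not called, nor were Snhg12 and Mir17hg. Snhg1 had a log2FC of 0.54 (SE 0.15, FDR 0.00397) in WT mice, under the fold threshold. Of the mRNAs of 7 snoRNP proteins tested, 4 were called higher for WT and 1 for TSP-1 null mice, with none lower, and the median log2FC was 0.80 and 0.52, beside 0.53 and 0.50 over all genes.

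Transcripts of ribosomal proteins and many Snhg genes begin with a C followed by pyrimidines, a run known to tie translation and decay to growth signals. Stretches of 30 bases around the RefSeq starts (GRCm38.p6, start at base 11) are shown for 4 of the Snhg genes. Capitals mark a C and at least 4 pyrimidines that begin within 3 bases of the start.
Snhg1: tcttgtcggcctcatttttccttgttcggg
Snhg5: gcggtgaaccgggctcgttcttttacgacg
Snhg7: gatgctcggCCTCTCggcagccatggcggc
Snhg12: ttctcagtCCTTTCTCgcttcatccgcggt

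Snhg7 and Snhg12 hold such a run and Snhg1 and Snhg5 do not by this rule. It was found in 13.2% of the 121 windows of the 230 lincRNAs and in 11.6% of 27025 windows of all genes. The 4 lie at chr19:8723477-8723506 (plus strand), chr9:88522878-88522907 (minus), chr2:26640225-26640254 (minus) and chr4:132308668-132308697 (plus), in the order shown. Of these 4, Snhg5 and Snhg7 were called between diets.

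Meg3 was almost silent on control diet and prominent on CDAHFD. Meg3 is a maternally expressed imprinted lincRNA that ends before a large cluster of miRNAs, and it is known in mesenchymal cells. Its FPKM was 0.033, 0.066, 0.037, 0.048 and 0.05 in NDWT and 0.118, 0.056, 0.062, 0.069 and 0.079 in NDKO, from 12 to 44 fragments per library. In HFWT it was 12.4, 3.91, 8.22, 7.51 and 4.64, and in HFKO 1.83, 2.38, 2.52, 1.93 and 3.16. Every CDAHFD library was above every control library, and every HFWT library above every HFKO library. As Meg3 passed the filter through CDAHFD libraries alone, the diet difference is given as levels. Between genotypes on CDAHFD it was 3.11-fold lower in TSP-1 null mice (log2FC -1.50, SE 0.24, FDR 0.0025), and the call was lost only with the fit of the 2 CDAHFD groups alone (FDR 0.0535). The summed stellate cell markers were 189 to 348 FPKM in HFWT and 210 to 249 in HFKO, and none of the 6 was called between these groups. Their part in the Meg3 difference was not tested.

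The Meg3 promoter is shown because Meg3 was called between genotypes on CDAHFD. The window runs from 250 bases before to 50 after the RefSeq start at chr12:109540746-109541045, plus strand, GRCm38.p6. Capitals mark TGACGTCA, the motif of cAMP response element binding factors, 57 bases before the start, CCAAT 100 bases before it, and a run that holds TATAAA on both strands, overlapping, at 25 and 29 bases before it.
Meg3: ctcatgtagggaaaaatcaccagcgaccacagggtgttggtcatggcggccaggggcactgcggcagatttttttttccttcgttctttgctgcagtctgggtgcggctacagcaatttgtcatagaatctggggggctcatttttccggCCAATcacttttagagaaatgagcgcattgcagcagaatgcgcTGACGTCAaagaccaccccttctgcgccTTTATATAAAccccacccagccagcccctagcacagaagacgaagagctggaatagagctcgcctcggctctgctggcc

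Promoter windows matched 121 of the 230 lincRNAs, and 101 of these started within 1000 bases of the table's start. Searched on both strands, TGACGTCA was in 4.13% of them and in 1.88% of the windows of all genes, CACGTG in 14.0% and 7.24%, TATAAA in 16.5% and 14.2%, CCAAT in 31.4% and 37.9%, and TGANTCA in 4.13% and 7.93%. The median GC content was 56.7% and 52.7%. These are letter matches and describe no binding.

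The host of miR-142, A430104N18Rik, rose strongly. It was at 2.56, 4.68, 2.30, 0.433 and 0.559 FPKM in NDWT and 18.033, 12.8, 18.7, 22.9 and 24.5 in HFWT, which is 9.22-fold higher (log2FC 3.57, SE 0.49, FDR 2.08e-06). In TSP-1 null mice it was at 0.919 to 3.60 and 8.28 to 19.9 FPKM (log2FC 2.18, SE 0.49, FDR 0.000519). Neither pair of groups overlapped, and both calls held in all 28 alternatives. The macrophage, T cell and neutrophil marker sums given above rose over the same libraries, and their part was not tested. A330023F24Rik, the host of miR-29b and miR-29c, was called lower in TSP-1 null mice. It was named after its values were seen, and it overlaps Cd46 on the opposite strand. It was at 0.936 to 1.40 FPKM in NDKO and 0.629 to 0.784 in HFKO, without overlap, and fell (log2FC -0.78, SE 0.17, FDR 0.000384). In WT mice it was at 0.895 to 1.21 and 0.477 to 1.11 FPKM, with a log2FC of -0.31 (SE 0.17, FDR 0.108). Mir17hg was at 0.496 to 0.746 FPKM in NDWT and 0.41 to 0.949 in HFWT (log2FC 0.23, SE 0.19, FDR 0.268).

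Further large rises were in lincRNAs of which little is known. Gm19705 was at 0.115 to 0.613 FPKM in NDWT and 5.42 to 7.98 in HFWT (log2FC 3.80, SE 0.35, FDR 1.41e-08), and at 0.169 to 1.06 and 2.63 to 6.401 FPKM in NDKO and HFKO (log2FC 2.74, SE 0.35, FDR 1.22e-06). Too few of its control libraries were above 0.5 FPKM to pass the filter without CDAHFD libraries, so these diet calls lean on the selection. Gpr137b-ps, a pseudogene of the lysosomal receptor Gpr137b whose reads may be shared with its parent gene, had 0.645 to 1.56 against 5.77 to 8.80 FPKM between NDWT and HFWT (log2FC 2.55, SE 0.21, FDR 2.05e-09) and 0.396 to 0.642 against 3.17 to 6.79 FPKM between NDKO and HFKO (log2FC 2.92, SE 0.21, FDR 4.14e-10). RP23-103I12.13 lies within Loxl2, a lysyl oxidase that crosslinks collagen, on the same strand, so its reads may be those of Loxl2. It was at 0.343 to 1.10 FPKM over the 10 control libraries and 4.06 to 6.68 FPKM over the 10 CDAHFD libraries, with log2FC of 2.85 (SE 0.27, FDR 2.02e-08) and 2.81 (SE 0.27, FDR 2.77e-08).

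Gm13056 was at 0 to 0.697 FPKM on control diet and 1.17 to 3.46 FPKM on CDAHFD, with log2FC of 3.07 (SE 0.47, FDR 7.86e-06) for WT and 2.63 (SE 0.47, FDR 5.03e-05) in TSP-1 null mice. It rested on 0 to 8 fragments per control library. It passed the filter through CDAHFD libraries, so these diet calls lean on the selection. RP23-45G16.5, now named Lockd, starts 8691 bases from Cdkn1b, the gene of the cell cycle inhibitor p27. It was at 0 to 0.931 and 0.785 to 2.97 FPKM, with log2FC of 2.16 (SE 0.53, FDR 0.00114) and 3.03 (SE 0.53, FDR 4.23e-05), the first lost with quantile normalization. RP23-45G16.5 rested on 0 to 11 fragments per control library. Too few of these were above 0.5 FPKM to pass the filter without CDAHFD libraries, so its diet calls lean on the selection as well. Cdkn1b itself was called higher in both genotypes, with log2FC of 0.72 (FDR 1.36e-07) and 0.88 (FDR 1.07e-08). Pvt1, which lies downstream of the oncogene Myc, was at 0.226 to 0.516 FPKM on control diet and 0.302 to 0.63 on CDAHFD. Its log2FC was 0.47 (SE 0.20, FDR 0.0416) for WT and 0.59 (SE 0.20, FDR 0.0136) in TSP-1 null mice, of which the second passed, though not without NDKO replicate 2 or 5 or HFKO replicate 2 or 5. The first passed without NDWT replicate 5. With quantile normalization Pvt1 turned to -0.94 and -0.69. Too few of its control libraries were above 0.5 FPKM to pass the filter alone, so its diet call leans on the selection. Myc was called higher in both, with log2FC of 2.54 (FDR 3.22e-09) and 1.44 (FDR 6.56e-06).

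The 25 lincRNAs above 0.5 FPKM on CDAHFD alone had group means of 0 to 0.358 FPKM in NDWT and 0.0106 to 0.424 in NDKO, and of 0.513 to 7.34 in HFWT and 0.451 to 2.36 in HFKO. Meg3 was the highest of them. Gm26578, which overlaps the growth factor gene Nrg1 on the opposite strand, was at 0.01 to 0.078 FPKM on control diet, from 1 to 6 fragments, and at 0.604 to 1.31 FPKM on CDAHFD. Gm13391 had no fragment in any NDWT library and at most 1 in NDKO. It was at 0.656 to 1.25 FPKM in HFWT and 0.216 to 1.12 in HFKO, at least 5.09-fold and 4.24-fold higher against a floor of 3 fragments per library.

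Of the lincRNAs that fell in both genotypes, 9030616G12Rik was the most abundant. It was at 36.8, 26.4, 25.6, 37.1 and 21.8 FPKM in NDWT and at 2.34, 6.10, 2.83, 4.75 and 3.59 FPKM in HFWT. In NDKO it was at 23.2, 37.1, 29.1, 27.5 and 19.6 FPKM and in HFKO at 2.53, 6.25, 3.19, 3.54 and 4.97 FPKM. It fell 7.53-fold in WT and 6.66-fold in TSP-1 null mice, without overlap (log2FC -2.93 and -2.74, SE 0.26, FDR 6.33e-09 and 1.81e-08), and it kept both calls in every alternative. It lies on chromosome 10 (GRCm38, 128971197 to 128978115, plus strand) and overlaps no protein-coding gene. The start of Mettl7b, a lipid droplet methyltransferase, is 10209 bases away, and Mettl7b was called lower too (log2FC -0.92 and -0.68, FDR 6.07e-06 and 0.000185).

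C330002G04Rik was at 4.69 to 8.11 FPKM on control diet and 1.45 to 3.48 on CDAHFD, with log2FC of -1.55 (SE 0.21, FDR 1.7e-06) for WT and -1.31 (SE 0.21, FDR 1.47e-05) in TSP-1 null mice. 2810425M01Rik was at 1.17 to 2.28 and 0.328 to 0.753 FPKM, with log2FC of -1.60 (SE 0.21, FDR 1.35e-06) and -1.69 (SE 0.21, FDR 7.63e-07). Neither pair of diets overlapped for these 2. Gm26588 lies antisense to Mgll, the gene of monoglyceride lipase, with starts 89 bases apart. It had 2.02 to 2.99 FPKM (NDWT) against 0.666 to 1.08 (HFWT) and fell (log2FC -1.50, SE 0.14, FDR 1.66e-08), as it did between NDKO, at 1.58 to 2.19, and HFKO, at 0.867 to 1.38 (log2FC -0.70, SE 0.14, FDR 0.000208). Mgll fell as well, from a mean of 134 ± 20.8 to 41.3 ± 6.45 FPKM where WT (log2FC -1.69, SE 0.15, FDR 6.18e-09) and from 96.1 ± 23.9 to 50.3 ± 4.53 where null (log2FC -0.90, SE 0.15, FDR 2.35e-05).

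Gm11342, antisense to Cmah, was at 0.791 to 2.72 FPKM on control diet and 0.062 to 0.912 on CDAHFD. Its log2FC was -1.29 (SE 0.36, FDR 0.00355) for WT and -1.84 (SE 0.36, FDR 0.000164) in TSP-1 null mice, where alone the groups did not overlap. Gm12336 was at 0.186 to 1.25 and 0 to 0.613 FPKM, with log2FC of -1.32 (SE 0.43, FDR 0.00925) and -1.74 (SE 0.43, FDR 0.00128), again apart only in TSP-1 null mice. It rested on 1 to 8 fragments per control library and 0 to 4 per CDAHFD library. Its WT call was lost with a pseudocount of 1. Gm16551 is a liver lincRNA induced by the lipogenic factor SREBP1c that restrains lipogenic genes. It was at 1.47, 3.35, 1.08, 0.581 and 0.661 FPKM in NDWT and at 0.448, 0.734, 0.301, 0.564 and 0.242 in HFWT, with overlap, and fell (log2FC -1.26, SE 0.37, FDR 0.00445). In TSP-1 null mice it was at 0.297 to 0.763 and 0.194 to 0.4 FPKM, with a log2FC of -0.75 (SE 0.37, FDR 0.0755), which was called without NDWT replicate 2 or NDKO replicate 2. Gm11342, Gm12336 and Gm16551 had too few CDAHFD libraries above 0.5 FPKM to pass the filter without control diet libraries. Their diet calls therefore lean on the selection.

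Between genotypes on the control diet, 20 lincRNAs were called, 10 higher in TSP-1 null mice (4.35%) and 10 lower (4.35%), beside 1.74% and 3.03% of all genes tested. Without overlap, 11 were higher and 9 lower, beside 2.33% and 6.69% of all genes. The median log2FC was 0.03 for the 230 and -0.07 for all genes. With median of ratios scaling the split was 13 higher (5.65%) and 6 lower (2.61%), beside 2.41% and 2.26% of all genes. Under all 3 scalings 8 of the 10 higher calls held, and 3 of the 10 lower calls. An unadjusted p under 0.05 was found for 59 (25.7%), beside 27.3% of all genes. The filter could also pass a lincRNA through the libraries of 1 genotype alone, as it did Gm14319.

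9430037G07Rik had the lowest FDR of the 10 that were higher. It was at 2.27, 2.04, 1.42, 1.76 and 1.08 FPKM in NDWT and at 7.05, 5.02, 5.71, 8.59 and 5.12 in NDKO, 3.68-fold higher and without overlap (log2FC 1.83, SE 0.24, FDR 0.000105). On CDAHFD it was at 0.445 to 1.18 FPKM in HFWT and 0.472 to 1.11 in HFKO, so that the diet difference was -1.06 (SE 0.24, FDR 0.000638) for WT and -3.05 (SE 0.24, FDR 1.8e-09) in TSP-1 null mice on the log2 scale. All 4 calls of this lincRNA, the interaction included, held in every alternative. It holds a snoRNA and lies on chromosome 9 (GRCm38, 88595325 to 88599516, minus strand).

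5730420D15Rik starts 195 bases from Socs2, a brake on growth hormone signaling, on the opposite strand. It was at 0.327, 0.507, 0.57, 1.68 and 0.127 FPKM in NDWT and at 3.36, 3.65, 2.67, 3.86 and 1.59 in NDKO (log2FC 2.35, SE 0.48, FDR 0.00373), with 1 NDWT library above the lowest NDKO library. On CDAHFD it was at 0.142 to 1.48 FPKM in HFWT and 0.268 to 0.71 in HFKO, and between diets it fell in TSP-1 null mice (log2FC -2.58, SE 0.48, FDR 9.17e-05). Socs2 was at 3.46 ± 3.12 FPKM in NDWT and 5.72 ± 2.21 in NDKO, with a log2FC of 1.10 (SE 0.52, FDR 0.181).

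Neat1 was 2.17-fold higher in NDKO than in NDWT, with overlap (log2FC 1.03, SE 0.22, FDR 0.00535). Gm14319 was at 0.083 to 0.489 FPKM in NDWT and 0.623 to 1.29 in NDKO, without overlap (log2FC 2.10, SE 0.43, FDR 0.00342), from 1 to 8 and 7 to 18 fragments per library. No WT library on either diet was above 0.5 FPKM. Gm14319 passed the filter through TSP-1 null libraries alone, so this call leans on the selection. Gm26745, Gm16907 and 4933417D19Rik were also apart and higher in NDKO, with log2FC of 1.05 (SE 0.23, FDR 0.00512), 0.98 (SE 0.19, FDR 0.00231) and 1.01 (SE 0.31, FDR 0.0374). With a pseudocount of 1 neither Gm26745 nor Gm16907 was called, and 4933417D19Rik lost its call without NDWT replicate 1, 2, 4 or 5 or NDKO replicate 1, 2, 3 or 5 (FDR up to 0.078). Gm26745 starts 2681 bases from Psmd9, a proteasome assembly gene, and 4933417D19Rik 1118 bases from Spata2l. Neither neighbour was called between genotypes, with log2FC of 0.37 (SE 0.13, FDR 0.0729) and 0.42 (SE 0.18, FDR 0.132).

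Of the 10 lower on control diet, Gm15611 was the most abundant. It was at 84.8, 84.0, 69.9, 50.4 and 48.2 FPKM in NDWT and at 26.5, 20.2, 37.8, 41.6 and 6.70 in NDKO, without overlap (log2FC -1.54, SE 0.43, FDR 0.0225). The call was lost with quantile normalization and with a fit of the 2 groups alone (FDR up to 0.0569). Gm11419 was at 7.49, 3.69, 10.9, 4.52 and 5.80 FPKM in NDWT and at 2.77, 1.55, 0.783, 1.28 and 2.46 in NDKO, 3.67-fold lower and without overlap (log2FC -1.84, SE 0.29, FDR 0.000651), and held in all 28 alternatives. It rose with CDAHFD to 11.1 to 23.0 FPKM in HFWT (log2FC 1.29, SE 0.29, FDR 0.000622) and 8.79 to 11.1 in HFKO (log2FC 2.55, SE 0.29, FDR 2.66e-07). Gpr137b-ps (log2FC -0.87, SE 0.21, FDR 0.00953) and Gm26516 (log2FC -1.06, SE 0.23, FDR 0.00499) were lower and apart, though not called with a pseudocount of 1. So was Gm26549 (log2FC -0.68, SE 0.21, FDR 0.0379). Its call was lost in 12 of 27 alternatives, among them without NDWT replicate 2, 3, 4 or 5 or NDKO replicate 1, 2, 3 or 5 (FDR up to 0.149).

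On CDAHFD 3 lincRNAs were called lower in TSP-1 null mice (1.3%) and none higher, beside 0.33% and 0.165% of all genes, and 34 (14.8%) had an unadjusted p under 0.05, beside 17.2%. Without overlap, 6 were lower and 1 higher, beside 4.13% and 0.847%. The 3 were Meg3, Gm26669 and AI662270, and none of them was called on control diet. Gm26669, which starts 4979 bases from Zfp36l1, a gene for mRNA decay, was at 1.51, 1.47, 0.955, 1.86 and 2.53 FPKM in HFWT and at 0.927, 0.636, 0.615, 0.616 and 0.58 in HFKO, without overlap (log2FC -1.14, SE 0.26, FDR 0.0374). AI662270 was at 7.94, 7.06, 7.65, 10.033 and 10.1 FPKM in HFWT and at 3.92, 4.98, 4.82, 3.23 and 7.51 in HFKO, with overlap (log2FC -0.84, SE 0.19, FDR 0.0325), and was named after its values were seen. The call of Gm26669 was lost without HFWT replicate 1, 2, 4 or 5 or HFKO replicate 2, 3, 4 or 5 (FDR up to 0.0884). The 3 calls were down to 1 without HFWT replicate 1, 4 or 5 or HFKO replicate 2, 3 or 4, and to 0 with a fit of these groups alone. Zfp36l1 was at 42.6 ± 11.7 and 44.7 ± 8.14 FPKM.

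**Figure D4:**
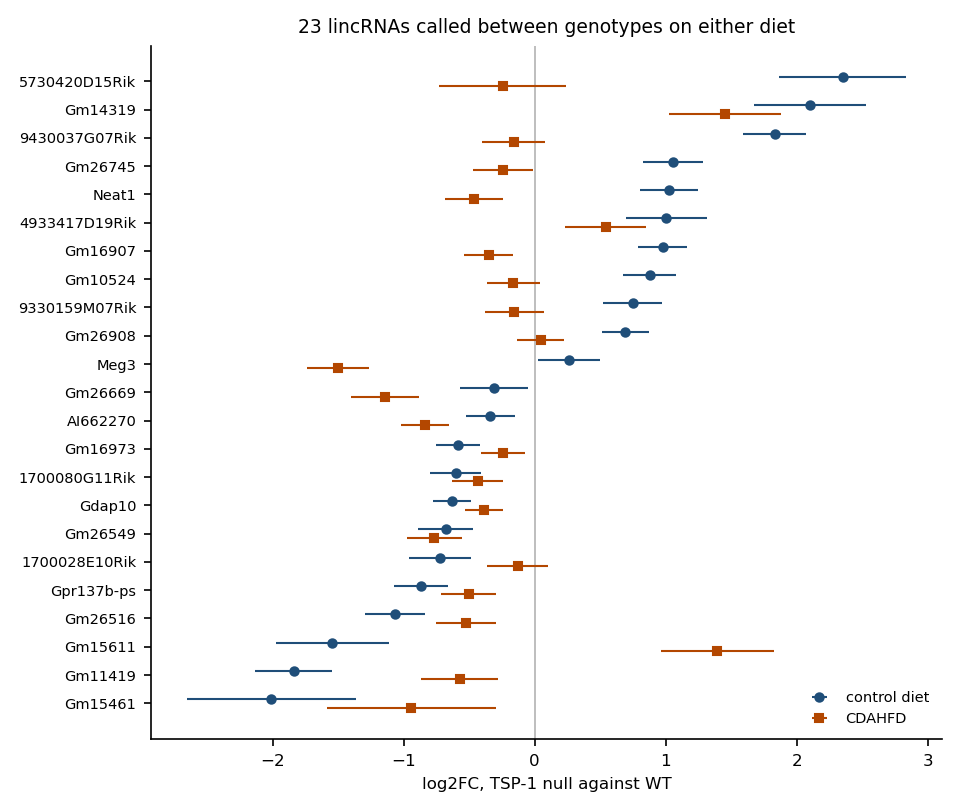
log2FC of TSP-1 null against WT (x axis) for the 23 lincRNAs called on either diet (y axis), with circles for control diet and squares for CDAHFD, and bars for the SE. No lincRNA was called on both diets, and Gm15611 lies at -1.54 and 1.40.

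The interaction, which is the genotype log2FC on CDAHFD less that on control diet, was called for 6 of the 230, 1 higher and 5 lower, beside 0.337% and 0.31% of all genes. Gm15611 was higher (2.94, SE 0.61, FDR 0.0288). Its FPKM was lower in NDKO than in NDWT, while on CDAHFD it was at 3.57, 13.6, 6.93, 19.8 and 7.84 in HFWT and at 24.7, 20.3, 23.1, 20.1 and 29.5 in HFKO, again without overlap but in the other order (log2FC 1.40, SE 0.43, FDR 0.11, called only without NDKO replicate 5). Seen by diet, it fell 6.52-fold in WT mice (log2FC -2.88, SE 0.43, FDR 6e-06), and in TSP-1 null mice the log2FC was 0.05 (SE 0.43, FDR 0.916). Gm15611 starts 2345 bases from Crot, a peroxisomal enzyme of fatty acid oxidation on the same strand, which fell in WT mice (log2FC -0.70, FDR 6.98e-06), with -0.43 (FDR 0.0012) in TSP-1 null mice.

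The other 5 were Neat1 (-1.49, SE 0.32, FDR 0.0302), Meg3 (-1.76, SE 0.33, FDR 0.0183), 9430037G07Rik (-1.99, SE 0.34, FDR 0.0121), Gm16907 (-1.33, SE 0.26, FDR 0.0245) and Fendrr (-0.76, SE 0.18, FDR 0.0492). Fendrr, whose start is 1276 bases from that of the mesenchymal factor Foxf1, was at 1.85, 1.48, 1.22, 1.46 and 1.30 FPKM for NDWT and 1.91, 2.11, 1.61, 1.81 and 2.09 for NDKO. The CDAHFD libraries had 3.12, 3.66, 2.88, 3.12 and 3.01 FPKM for HFWT and 2.32, 1.75, 2.71, 2.47 and 2.81 for HFKO. It rose with diet in WT mice (log2FC 1.07, SE 0.12, FDR 2.77e-07), though not with median of ratios or quantile scaling. Foxf1 rose with diet in both genotypes, with log2FC of 1.37 (SE 0.19, FDR 1.9e-06) and 1.08 (SE 0.19, FDR 3.55e-05), and its interaction was -0.29 (SE 0.26, FDR 0.653). Gm16907 had 0.218 to 0.402 (NDWT), 0.532 to 0.864 (NDKO), 1.75 to 1.92 (HFWT) and 0.939 to 1.95 FPKM (HFKO), with a genotype log2FC of -0.35 (SE 0.19, FDR 0.342) on CDAHFD.

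Of these calls, 9430037G07Rik and Meg3 held in all 27 alternatives, though all but 1 of the control diet levels of Meg3 lay under the pseudocount of 0.1 FPKM. Gm15611 was lost without NDWT replicate 3, HFWT replicate 3 or HFKO replicate 1 or 2, and Gm16907 without NDKO replicate 4 or HFKO replicate 2. Neat1 was lost without NDWT replicate 1, 3 or 5, NDKO replicate 1 or 4, HFWT replicate 3 or 4 or HFKO replicate 1 to 4, and Fendrr in 22 of 27 alternatives, that is, without any 1 library other than NDWT replicate 1, NDKO replicate 3 or HFKO replicate 5 and in 5 other settings.

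Neighbouring genes were compared next. For 88 of the 230, a protein-coding gene on the opposite strand starts within 5 kb, and 84 of these neighbours were tested. Across these 84 pairs the log2FC between diets had a Pearson r of 0.607 (WT) and 0.539 (TSP-1 null), against 0.289 and 0.236 over the 108 other pairs. Both members of a divergent pair were called in 23 cases in WT mice, 22 of them in the same direction, and in 17 in TSP-1 null mice, 16 in the same direction. For the other pairs this was 28 of 30 and 23 of 24. Of all genes, 44.1% (WT) and 41.9% (TSP-1 null) were called higher and 4.62% and 4% lower. Most pairs with both called would therefore share a direction in any case. The pairs also include those of the 25 lincRNAs above 0.5 FPKM on CDAHFD alone whose neighbour was tested. Between genotypes r was 0.515 on control diet and 0.124 on CDAHFD for divergent pairs, and 0.17 and 0.182 for the others. The points share libraries and scaling, and the difference between the 2 kinds of pairs was not tested.

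**Figure D5:**
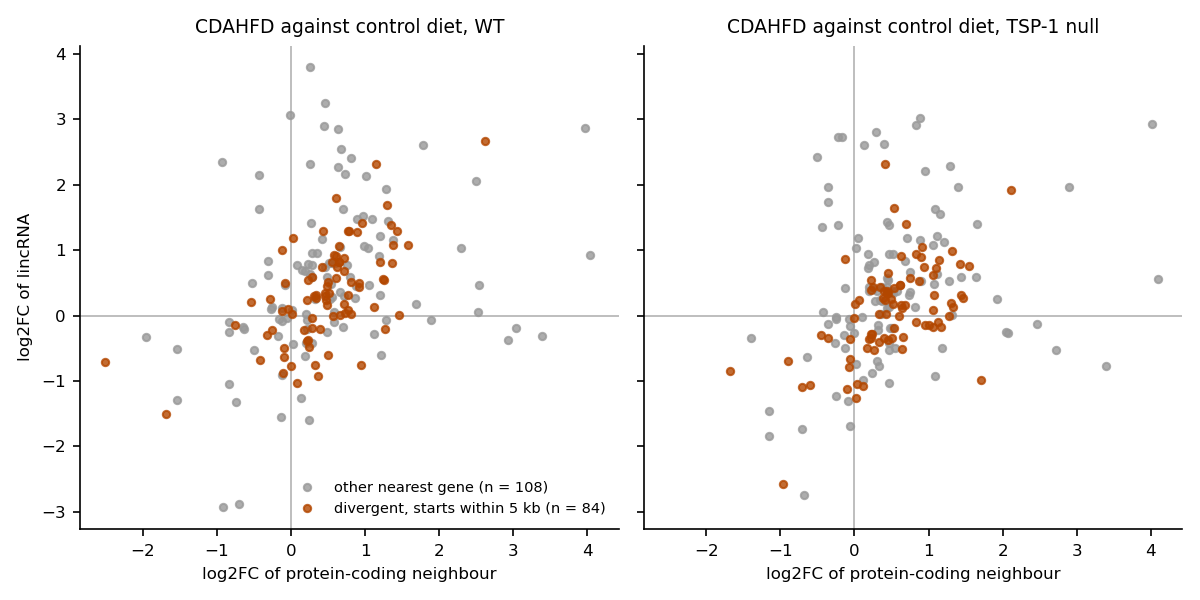
log2FC of CDAHFD against control diet of each lincRNA (y axis) and of its nearest protein-coding gene (x axis), in WT (left) and TSP-1 null mice (right). Orange points are the 84 divergent pairs and grey points the 108 others, with r of 0.607 against 0.289 in WT mice.

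Snhg1 and Slc3a2 form such a pair, with starts 127 bases apart. Slc3a2 is the heavy chain of an amino acid transporter. It went from 11.6 to 14.5 FPKM (NDWT) up to 24.1 to 35.4 (HFWT; log2FC 1.25, SE 0.11, FDR 5.07e-09), and from 10.5 to 13.7 (NDKO) up to 24.8 to 35.1 (HFKO; log2FC 1.30, SE 0.11, FDR 3.74e-09). Snhg1 was at 1.54 to 2.21 and 2.00 to 3.66 FPKM in NDWT and HFWT, with overlap. The window of Snhg1, 250 bases before to 50 after its start at chr19:8723237-8723536, plus strand, also covers the start of Slc3a2. Capitals mark TATAAA on the opposite strand, 29 bases before the Snhg1 start.
Snhg1: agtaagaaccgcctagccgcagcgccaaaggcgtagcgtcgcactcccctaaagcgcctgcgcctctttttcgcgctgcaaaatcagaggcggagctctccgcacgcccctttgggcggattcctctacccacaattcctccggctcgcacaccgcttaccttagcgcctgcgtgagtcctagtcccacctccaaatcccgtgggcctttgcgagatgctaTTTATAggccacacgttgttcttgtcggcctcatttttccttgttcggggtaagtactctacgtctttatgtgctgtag

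By position, of the 84 lincRNAs with such a gene on the opposite strand, 29 (34.5%) were called higher and 11 (13.1%) lower in WT mice, beside 44.1% and 4.62% of all genes, and 18 (21.4%) and 17 (20.2%) in the null mice, beside 41.9% and 4%. Of the 131 with no overlap on either strand it was 51 (38.9%) and 11 (8.4%) in WT and 43 (32.8%) and 11 (8.4%) in the null mice. Neither split was tested.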

How the data were processed

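RNA from the liver of 20 mice was reverse transcribed with a directional kit and sequenced. Per the labels, the authors aligned reads with STAR 2.5.2 and counted them with featureCounts of Subread 1.5.1, and they deposited FPKM to 3 decimals. The labels name a human build, but the coordinates are those of mouse GRCm38. Fragments came back whole (within 0.3) for 100% of the values checked in each library. They are reads without molecular identifiers, so floors cover counting error only. limma 3.58.1 (R 4.3.3) was fitted to log2(FPKM + 0.1) of 14524 genes, with a mean per group over 20 libraries and eBayes with trend, and log2FC understates the change of low genes. The fit was tested on simulated data. The members, role lists, markers, tests and motifs were chosen with earlier results of these data known. Named are role-list members, the 10 most abundant, the 5 called and non-overlapping members with the largest log2FC per comparison and direction, members called for the interaction, and divergent neighbours within 5 kb, of which 1 is not reported here. A330023F24Rik, AI662270 and neighbours farther away were named after their values were seen. Mice are separate animals. Sources differ on the lobe sampled. Annotation came from GENCODE M21 and RefSeq, and Python 3.11.15 (pandas 2.3.3, matplotlib 3.10.9) drew the plots.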

Additional observations from a re-analysis of the deposited data

Results flagged for a closer look

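Over 46 named lincRNAs and 4 groups, 14 of 184 groups of 5 mice held a library far from the other 4, where chance flags about 1 in 20 groups. Most distant in size was Gm26924 in HFWT replicate 5, at 24418 FPKM with the next at 3889. Malat1 was at 103 FPKM in NDWT replicate 3 and at 120 in NDKO replicate 4. A430104N18Rik was at 19.9 FPKM in HFKO replicate 5 and Gpr137b-ps at 8.80 in HFWT replicate 1. 5730420D15Rik was at 1.68 FPKM in NDWT replicate 4, Gm26669 at 0.927 in HFKO replicate 1, Gm11342 at 0.912 in HFWT replicate 2 and Gm14319 at 0.489 in NDWT replicate 1. Ftx was at 1.86 FPKM in NDKO replicate 5, with the next at 0.387, and at 1.72 in HFKO replicate 4, with the next at 0.632. 4933417D19Rik was low, at 0.498 FPKM, in HFKO replicate 3. Gm26578 was at 0.068 FPKM in NDKO replicate 4 and Gm13391 at 0.053 in NDKO replicate 5, both from a few fragments.

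The genotype log2FC on CDAHFD less that on control diet passed the threshold for 6 lincRNAs by limma's test of the difference itself: Neat1 at -1.49 (FDR 0.0302), Gm15611 at 2.94 (FDR 0.0288), Meg3 at -1.76 (FDR 0.0183), 9430037G07Rik at -1.99 (FDR 0.0121), Fendrr at -0.76 (FDR 0.0492) and Gm16907 at -1.33 (FDR 0.0245). Meg3 had 12 to 44 fragments per control diet library.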

How the results depend on the processing

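Counts of called lincRNAs are given in the order diet in WT, diet in TSP-1 null, genotype on control diet, genotype on CDAHFD and interaction, where the main counts were 111, 96, 20, 3 and 6. A pseudocount of 1 gave 51 and 51 calls between diets and 7 between genotypes on control diet. Keeping only lincRNAs with mean FPKM above 1, which leaves fewer of them, gave 56, 53 and 12. No filter on low values gave 13 between genotypes on control diet and 3 for the interaction. Quantile normalization gave 11 between genotypes on control diet, and median of ratios scaling gave 1 on CDAHFD. A fit of only the groups compared gave 0 on CDAHFD. The cause of these shifts was not tested. Leaving out 1 library gave 105 to 114, 92 to 97, 15 to 20, 1 to 4 and 2 to 9 calls, with the lowest interaction count without HFKO replicate 2 and the highest without HFWT replicate 1.

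The replicate block gave 110, 97, 19, 1 and 6 calls. Replicate numbers did not pair the samples: deviations of same-numbered libraries correlated at -0.133 to 0.0807 over 20 pairs, 0 of them above 0.1.

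With quantile normalization the diet log2FC turned negative in WT for Snhg5 (-0.029), 5730420D15Rik (-1.31), Snhg4 (-0.25), Snhg7 (-0.068), Gm26745 (-0.97), Jpx (-1.12), Mir17hg (-0.95), Gm26549 (-0.78), Ftx (-1.14), 4933417D19Rik (-0.96) and Pvt1 (-0.94), and in TSP-1 null mice for Snhg7 (-0.24), Gm26516 (-0.80), Mir17hg (-0.83), Gm26549 (-0.99) and Pvt1 (-0.69). Of 6160 recomputed values of named lincRNAs, 5949 kept their direction and side of the threshold, 129 fell below it, 66 passed it and 16 turned. Of 66 calls, 38 held in every alternative.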
